A study of Homo sapiens with 12 samples.

Results

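The genes described here handle the drug itself: 7 efflux pumps of the ATP-binding cassette (ABC) family, the enzymes CYP3A4 and CYP3A5 that clear CsA, and POR, which feeds electrons to them. Every probe set annotated to exactly 1 of these 10 genes was taken, which gave 28 of the 54675 probe sets in the table. CsA is read here as cyclosporin A, an immunosuppressant with kidney toxicity. HK-2 is an immortalized line of human proximal tubule cells. The 12 arrays, all from HK-2 cultures, held CsA for 48 h, vehicle control for 48 h, CsA for 12 h and vehicle control for 12 h, with 3 arrays in each of the 4 groups. The labels call the replicates biological and do not say whether they are separate cultures, so p-values measure the spread between these samples. All cells shared a medium with EGF, hydrocortisone, insulin, transferrin and selenite, and were treated near confluence. Neither the CsA dose nor the vehicle is named in the labels.

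ABC pumps use ATP to move drugs and their conjugates out of the cell. ABCB1 is P-glycoprotein, which CsA both uses as a way out and inhibits. The ABCC genes encode the multidrug resistance-associated proteins, which prefer organic anions and conjugates, and ABCG2 is the breast cancer resistance protein. In the human proximal tubule ABCB1, ABCC2, ABCC4 and ABCG2 face the urine. CYP3A4 in liver and gut, and CYP3A5 in kidney, oxidize CsA, with POR as their electron donor. Promoter sequences matched for 7 of the 10 genes in a RefSeq table on build GRCh38.p14, each with 250 bases before and 50 after an annotated start. The sequences of 3 genes are shown: ABCB1, whose change over time was the largest among the tested probe sets with CsA, and both CYP3A genes, which carry the same motif while their RNA stayed near background. Capitals in ABCB1 mark CCAAT or its reverse complement, ATTGG. Capitals in the CYP3A genes mark TGAACT and AGGTCA with any 6 bases between them, an everted repeat of the kind that the pregnane X receptor binds with its partner RXR. Both strands were searched.
ABCB1, chr7:87600835-87601134, minus strand: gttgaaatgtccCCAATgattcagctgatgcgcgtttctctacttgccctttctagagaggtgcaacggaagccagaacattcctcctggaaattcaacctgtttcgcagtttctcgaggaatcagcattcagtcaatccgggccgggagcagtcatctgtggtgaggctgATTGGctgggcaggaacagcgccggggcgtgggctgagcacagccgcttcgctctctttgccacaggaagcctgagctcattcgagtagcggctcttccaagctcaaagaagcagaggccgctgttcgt
CYP3A4, chr7:99784135-99784434, minus strand: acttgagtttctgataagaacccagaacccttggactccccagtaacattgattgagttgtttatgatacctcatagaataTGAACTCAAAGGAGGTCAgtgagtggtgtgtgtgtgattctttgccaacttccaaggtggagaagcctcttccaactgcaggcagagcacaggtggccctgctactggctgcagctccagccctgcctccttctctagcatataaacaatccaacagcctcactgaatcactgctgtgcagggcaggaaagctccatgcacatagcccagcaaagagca
CYP3A5, chr7:99679947-99680246, minus strand: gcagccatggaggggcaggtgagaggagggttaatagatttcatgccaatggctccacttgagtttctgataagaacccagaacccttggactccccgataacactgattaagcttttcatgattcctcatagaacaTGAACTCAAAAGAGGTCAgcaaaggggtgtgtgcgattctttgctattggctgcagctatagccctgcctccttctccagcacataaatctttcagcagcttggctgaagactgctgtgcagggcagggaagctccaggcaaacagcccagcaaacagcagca
The everted repeat was found in 3 of 35116 promoters of this length (0.00854%), in CYP3A4, CYP3A5 and ITGB1BP2. The CCAAT letters were found in 34.6% of them, and CYP3A5 holds 2 that are not capitalized here. The promoter of a second annotated start of ABCB1 held none. These matches are descriptions of the letters and not of bound sites.

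The values are log2 summaries of a probe set made by the authors with GCRMA. Where none of a group's 3 arrays reached 4 on this scale, a probe set is called near background in that group. Of all probe sets 54.6% lay under 4 on every array. Of the renal epithelial markers 7 of 9 lay above it on every array (KRT8, KRT18, KRT19, EPCAM, CDH6, CDH16 and PAX8). Of the proximal tubule markers 3 of 11 did (MME, SLC4A4 and PDZK1), and LRP2, CUBN, AQP1, ANPEP, GGT1, SLC34A1, SLC5A2 and SLC22A6 were near background throughout, so that the label rests on few proximal tubule markers here. Endothelial and leukocyte markers were near background on every array (4 of 4 in each list), as was NPHS1 of podocytes. Of the hepatocyte markers 5 of 7, ALB among them, and of the enterocyte markers 4 of 5 were near background on every array. SERPINA1 of the hepatocyte list and APOA4 of the enterocyte list lay above 4 on every array. SLC12A1 and AQP2 of the distal nephron and the matrix genes COL1A1 and LUM lay above 4 on every array. The median of the hybridization controls was 7.38 on the third CsA array of 48 h and ranged over 9.89 to 11.42 on the other arrays. The poly-A controls were low on both arrays numbered 1 of 48 h, with medians of 5.04 (CsA) and 4.32 (control) where the other arrays had 8.38 to 10.18. The 3' minus 5' log2 difference of ACTB, a sign of RNA integrity, was 1.22 on the third CsA array of 48 h and 1.33 on the first control array of 48 h, and 0.73 to 0.98 on the rest.

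HK-2 cells showed RNA for 6 of the 10 genes: ABCB1, ABCC1, ABCC3, ABCC4, ABCC5 and POR. The 4 others, ABCC2, ABCG2, CYP3A4 and CYP3A5, were near background in all groups with each of their 11 probe sets, whose values ran between 1.79 and 3.19. The enzymes that clear CsA were thus not detected above background with or without CsA. Tested with no filter, none of the 13 dim probe sets of the 10 genes passed in any of the 5 comparisons (smallest limma adjusted p = 0.0872, for CYP3A5 between CsA at 48 h and 12 h). The 9 probe sets of CYP3A4 and CYP3A5 lay between 1.79 and 2.76, and the widest range of one of them over the 12 arrays was 0.17. The brightest of CYP3A4, 205998_x_at, averaged 2.60 with CsA and 2.58 in the control at 48 h, and 2.57 with CsA and 2.57 in the control at 12 h. That of CYP3A5, 205765_at, averaged 2.75 with CsA and 2.73 in the control at 48 h, and 2.73 with CsA and 2.72 in the control at 12 h. ABCG2 (209735_at) lay between 2.10 and 2.14. ABCC2 (206155_at), the apical pump for conjugates, lay between 2.24 and 3.19, and the highest value was on replicate 2 of the control at 12 h. An array cannot tell a silent gene from a probe set that fails, and a single probe set stands for each of ABCC2 and ABCG2.

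**Figure D1:**
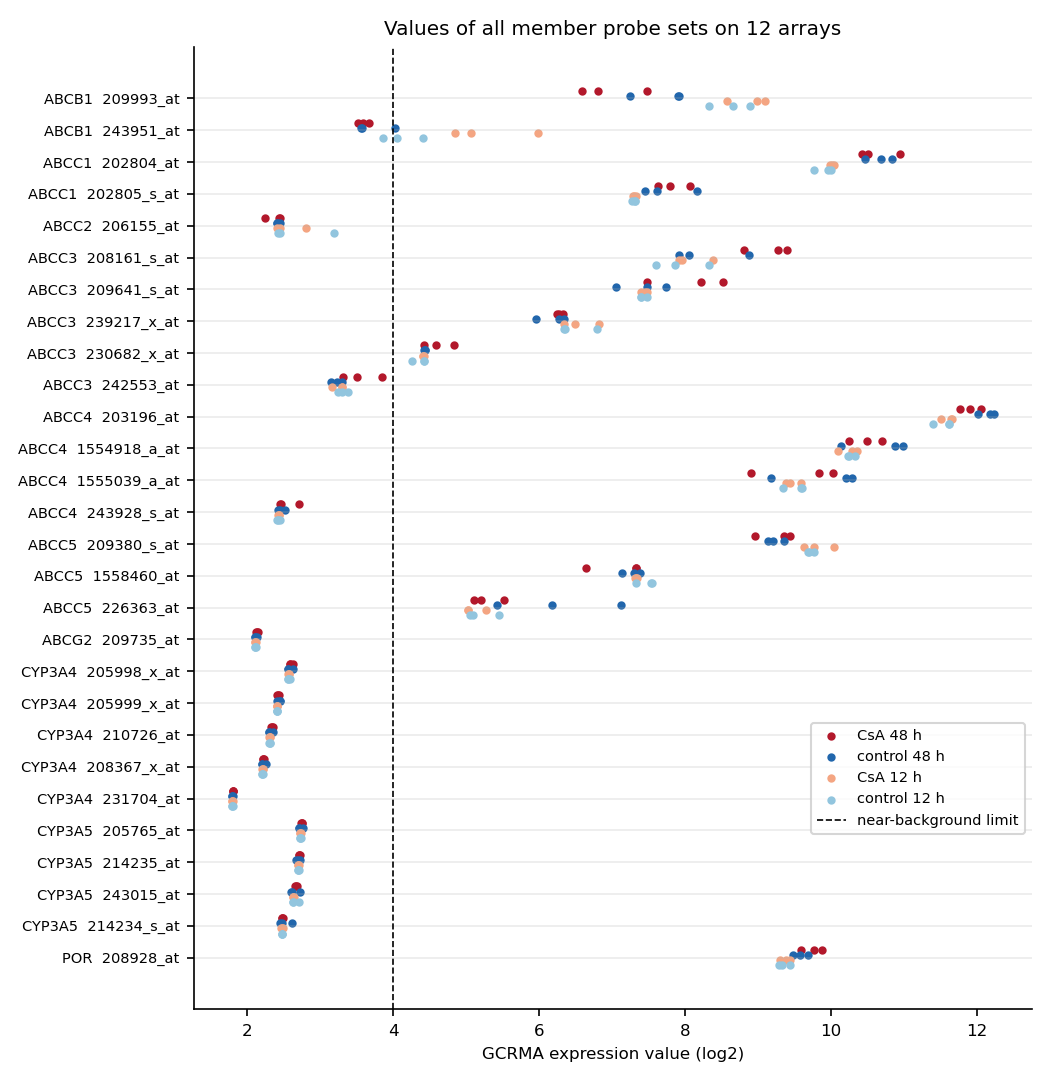
The x axis gives the log2 GCRMA value of each of the 28 probe sets on the 12 arrays, coloured by group, and the dashed line is the limit of 4. All 11 probe sets of ABCC2, ABCG2, CYP3A4 and CYP3A5 lie at or below 3.19, as does the ABCC4 probe set 243928_s_at, and the ABCC3 probe set 242553_at stays under 4.

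Of the 17 probe sets of the 6 genes with RNA, 15 exceeded 4 on at least 3 arrays and were tested among 20625 probe sets. The other 2 were near background in all groups, 242553_at of ABCC3 and 243928_s_at of ABCC4. The filter did not use the groups, but a dim probe set can pass it through 1 group alone. For 243951_at of ABCB1 the CsA arrays of 12 h sufficed. Control replicates 1 and 2 of 12 h (4.40 and 4.05) and control replicate 1 of 48 h (4.02) exceeded 4 as well. Probe sets of a gene read the same RNA and are not replicates. The brightest probe set stands for its gene. In whole cultures, fewer cells that express a gene and less RNA per cell cannot be told apart.

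No probe set of these genes passed in a comparison of CsA with control. At 48 h 0 of 15 passed by limma at an adjusted p of 0.05, where 0.0388% of all probe sets did, and at 12 h 0 of 15, where the share was 0%. At an unadjusted p under 0.05 there were 2 of 15 at 48 h, against 19.5% of all probe sets, and 1 of 15 at 12 h, against 6.5%. In a single model of 12 arrays, which called 12.7% of all probe sets at 48 h, again none of the 15 passed. The median log2 change of the 6 brightest probe sets was -0.015 at 48 h and 0.10 at 12 h, beside -0.005 and -0.0068 over all 11154 genes. No member's arrays separated the groups at 48 h, where 27.5% of all probe sets did, and 1 of 15 did at 12 h, where 12% did. The intervals below are 95% intervals from limma for a single probe set.

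The ABCB1 differences with CsA had opposite signs at the 2 times, negative at 48 h and positive at 12 h, and neither passed. At 48 h its brightest probe set, 209993_at, read 7.47, 6.80 and 6.59 with CsA, against 7.92, 7.90 and 7.24 in the control. The lower CsA arrays lay under all controls, but replicate 1 with CsA lay above replicate 3 of the control, so the groups overlapped, with a log2 change of -0.73 (SE 0.29, interval -1.44 to -0.02, limma adjusted p = 0.248). The mean of the ABCB1 probe sets gave -0.43 and array weights gave -0.36. At 12 h the values were 8.98, 9.09 and 8.57 with CsA, against 8.89, 8.65 and 8.33 in the control. Each CsA value exceeded the control of its own number, while the groups overlapped, and the log2 change was 0.26 (SE 0.19, interval -0.21 to 0.72, limma adjusted p = 0.877). That value was 0.15 without replicate 2 and 0.41 without replicate 3 of CsA, and 0.39 without replicate 1 and 0.11 without replicate 3 of the control, and the mean of the probe sets gave 0.72. With the replicate number as a block at 12 h, 209993_at had an unadjusted p of 0.0354 and an adjusted p of 0.367 by limma. The difference between these effects, 48 h minus 12 h, was -0.99 (SE 0.37, interval -1.82 to -0.16, limma adjusted p = 0.246), where 0.32% of all probe sets passed. With the replicate number as a block it passed (limma adjusted p = 0.0494), where 2.15% of all probe sets did. The number was taken as pairing the 12 h groups and, on lower correlations, the controls over time, and pairing was not shown for the 48 h groups.

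The second ABCB1 probe set, 243951_at, was much dimmer. At 12 h it read 5.98, 4.84 and 5.07 with CsA, against 4.40, 4.05 and 3.86 in the control. All CsA arrays lay above all controls, as was the case upward for 6.2% of all probe sets. This change of 1.19 on the log2 scale (SE 0.31, interval 0.43 to 1.95) had an unadjusted p of 0.00866 and a limma adjusted p of 0.617. With the replicate number as a block, this probe set had an unadjusted p of 0.00139 and an adjusted p of 0.258 by limma, and it did not pass. At 48 h it read 3.52, 3.66 and 3.59 with CsA, all near background, against 4.02, 3.56 and 3.57 in the control, with a log2 change of -0.13 (SE 0.16). Without replicate 1 of the control, an array with low poly-A controls, it was 0.02. The difference of the effects was -1.32 (SE 0.37, limma adjusted p = 0.144). Another probe set, 209994_s_at, matches both ABCB1 and its neighbour ABCB4, a phospholipid pump, and was not counted. It read 7.29, 7.09 and 7.08 with CsA, against 8.04, 8.18 and 7.07 in the control at 48 h, and 8.78, 8.67 and 8.68 with CsA, against 8.53, 8.59 and 8.09 in the control at 12 h. At 12 h all 3 probe sets were higher on average with CsA. At 48 h 209993_at and 209994_s_at were lower on average, and the sign of 243951_at rested on 1 control array.

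**Figure D2:**
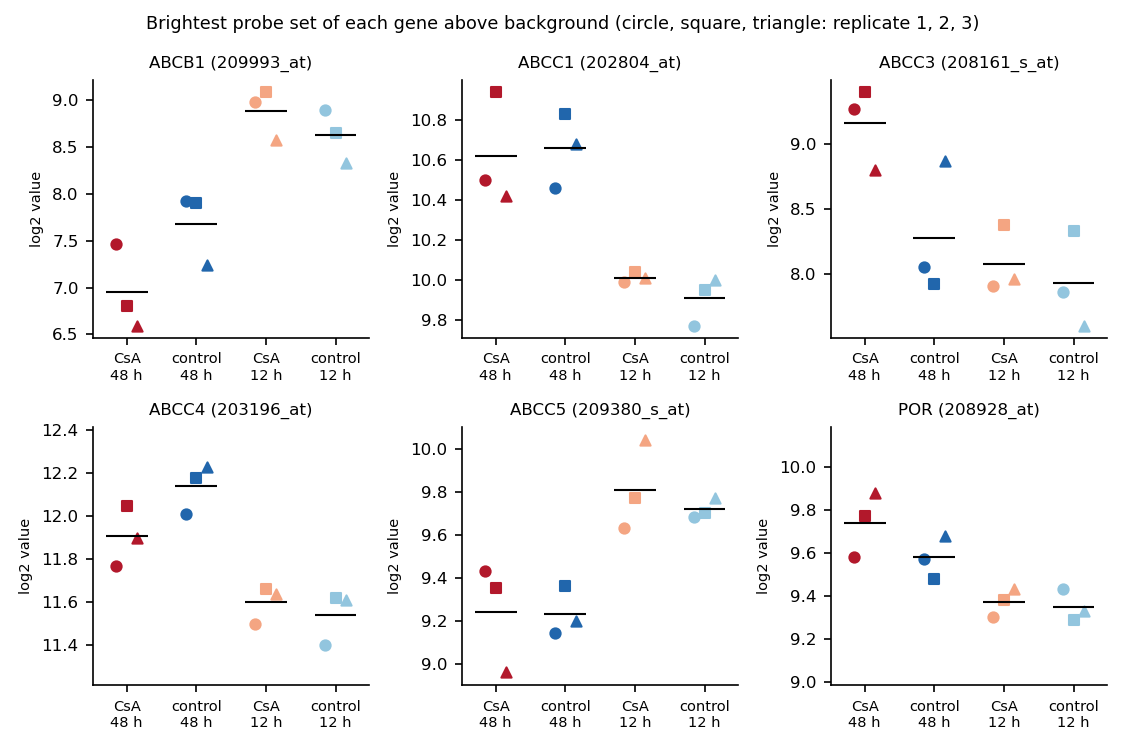
The log2 value of the brightest probe set of each of the 6 genes with RNA is plotted for every array by group, with symbols for the replicate number and a bar for the mean of 3 arrays. ABCB1 is lowest with CsA at 48 h (mean 6.95), and ABCC3 has its highest mean there (9.16). The y axes differ between panels and do not start at 0.

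ABCC3, a basolateral pump for glucuronide and bile acid conjugates, had the largest positive change at 48 h. Its brightest probe set, 208161_s_at, read 9.27, 9.40 and 8.80 with CsA, against 8.05, 7.92 and 8.87 in the control. Replicate 3 of the control lay above replicate 3 with CsA, and the groups overlapped through these arrays alone. Its change was 0.88 on the log2 scale (SE 0.29, interval 0.16 to 1.59, limma adjusted p = 0.190). The 12 h values were 7.91, 8.38 and 7.96 with CsA, against 7.86, 8.33 and 7.60 in the control, a log2 change of 0.15 (SE 0.22). The next probe set, 209641_s_at, read 8.21, 8.52 and 7.48 with CsA, against 7.48, 7.05 and 7.74 in the control at 48 h. Its log2 change was 0.64 (SE 0.31, interval -0.11 to 1.39). At 12 h it was 0.02 (SE 0.06). The dimmer probe sets 239217_x_at and 230682_x_at changed by log2 values of 0.09 (SE 0.14) and 0.18 (SE 0.13) at 48 h. Their x_at ending marks probes that may cross-hybridize. The 4 tested probe sets thus had the same sign but sizes between 0.09 and 0.88. For the 2 brightest, replicate 3 with CsA was the lowest of its group and replicate 3 of the control the highest. Replicate 3 with CsA is the array with the low hybridization control and a higher ACTB difference, whose part in the result was not tested. Without that array the log2 change of 208161_s_at was 1.06 (limma adjusted p = 0.149). Over all alternatives it lay between 0.45 and 1.17, and it passed in none (limma adjusted p between 0.0619 and 0.47).

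ABCC5, which exports cyclic nucleotides and nucleotide analogs, gave unlike readings in its 3 probe sets at 48 h. The brightest, 209380_s_at, read 9.43, 9.35 and 8.96 with CsA, against 9.14, 9.36 and 9.20 in the control, a log2 change of 0.01 (SE 0.16, interval -0.37 to 0.40). The dimmest, 226363_at, read 5.51, 5.20 and 5.10 with CsA, against 5.42, 7.12 and 6.18 in the control, a log2 change of -0.97 (SE 0.42, interval -1.99 to 0.04, limma adjusted p = 0.271). Replicates 2 and 3 of the control lay above all CsA arrays, and replicate 1 of the control did not. Without both replicate 1 arrays at 48 h, which had low poly-A controls and of which the control had the higher ACTB difference, the change was -1.51 and passed (limma adjusted p = 0.0342 in 1 model of the rest). Without replicate 2 of the control it was -0.54. The middle probe set, 1558460_at, had -0.17 (SE 0.21). At 12 h the 3 changes were 0.09 (SE 0.11), -0.09 (SE 0.13) and -0.14 (SE 0.08), in the order 209380_s_at, 226363_at and 1558460_at.

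ABCC4, the apical pump for cyclic nucleotides and urate, had no change with CsA that passed. The brightest probe set, 203196_at, read 11.77, 12.05 and 11.90 with CsA, against 12.01, 12.18 and 12.23 in the control at 48 h. Each CsA value lay under the control of its number, but replicate 2 with CsA exceeded replicate 1 of the control. The log2 change was -0.23 (SE 0.12, interval -0.54 to 0.07), and at 12 h it was 0.06 (SE 0.09, interval -0.16 to 0.27). The probe sets 1554918_a_at and 1555039_a_at had -0.18 (SE 0.26) and -0.30 (SE 0.41) at 48 h. Their spread was wide: 1555039_a_at read 9.83, 10.03 and 8.90 with CsA, against 9.17, 10.29 and 10.20 in the control.

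ABCC1, a basolateral exporter of glutathione conjugates, had 10.50, 10.94 and 10.42 with CsA, against 10.46, 10.83 and 10.68 in the control at 48 h (202804_at). The log2 change was -0.04 (SE 0.18, interval -0.48 to 0.40). At 12 h it read 9.99, 10.04 and 10.01 with CsA, against 9.77, 9.95 and 10.00 in the control, a log2 change of 0.11 (SE 0.08, interval -0.08 to 0.30). A second probe set, 202805_s_at, had 0.09 (SE 0.22) at 48 h and 0.01 (SE 0.05) at 12 h. As fold changes the intervals of 202804_at ran from 0.718 to 1.32 at 48 h and from 0.945 to 1.23 at 12 h.

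POR, the electron donor of the P450 enzymes in the endoplasmic reticulum, read 9.58, 9.77 and 9.88 with CsA, against 9.57, 9.48 and 9.68 in the control at 48 h (208928_at). Each CsA value exceeded the control of its number, with overlap between the groups. The log2 change was 0.17 (SE 0.13, interval -0.14 to 0.48). At 12 h it was 0.02 (SE 0.07, interval -0.15 to 0.19).

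**Figure D3:**
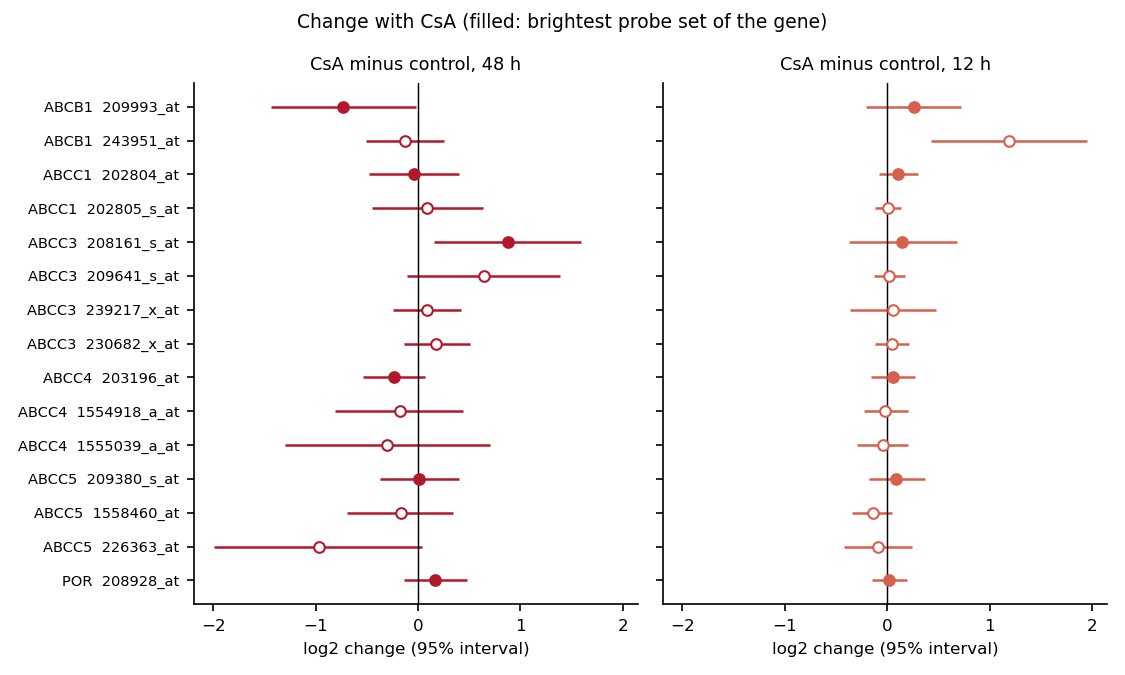
The log2 change with CsA is shown for the 15 tested probe sets at 48 h (left) and 12 h (right), with 95% intervals from limma fits of the 6 arrays of each time, and the filled points are the brightest probe set of a gene. The intervals of 209993_at (-1.44 to -0.02) and 208161_s_at (0.16 to 1.59) at 48 h and of 243951_at (0.43 to 1.95) at 12 h do not include 0, and no adjusted p passed.

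Time in culture moved these genes more than CsA did in number of calls. From 12 h to 48 h with CsA, 7 of 15 probe sets passed, where 39.6% of all probe sets did. Of them 4 were higher (19.6% of all) and 3 lower (20%). In the controls 4 of 15 passed, where 39.3% did, with 2 higher (20.4% of all) and 2 lower (18.8%). These counts are near the background or below it, and the values are given as the course of each gene. These comparisons use the arrays already compared above, so they are not independent of the CsA changes. A change passing with CsA and not in controls does not show a difference between them, and the test of that difference is the one given above as 48 h minus 12 h, in which no member passed without the replicate block.

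ABCB1 fell with time in both series. With CsA, 209993_at fell by 1.93 on the log2 scale (SE 0.26, 0.262-fold, limma adjusted p = 0.00297), with a mean of 6.95 at 48 h and 8.88 at 12 h. In the controls the change was -0.94 (SE 0.23, 0.520-fold, limma adjusted p = 0.0208), with a mean of 7.68 at 48 h and 8.63 at 12 h. In both series all 48 h arrays lay under all 12 h arrays, as was the case downward for 27.4% of all probe sets with CsA and 26.9% in controls. The call in the controls was lost without replicate 1 (-0.81, adjusted p = 0.0694) or replicate 2 (-0.93, adjusted p = 0.0624) of the 12 h controls by limma, and with no filter on dim probe sets (adjusted p = 0.0696). The call with CsA held when any of the 6 arrays was left out. The dim probe set 243951_at changed with CsA by -1.70 (SE 0.30, limma adjusted p = 0.0066), to a mean near background. In the controls it changed by -0.39 (SE 0.19, limma adjusted p = 0.150). With the replicate number as a block in limma the value was the same and the adjusted p = 0.0299. The number was taken as pairing the control arrays of both times on low correlations, 0.124 to 0.295.

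ABCC1 rose with time in both series. The change of 202804_at was 0.60 with CsA (SE 0.15, 1.52-fold, limma adjusted p = 0.0246), with a mean of 10.62 at 48 h and 10.01 at 12 h. In the controls it was 0.75 (SE 0.12, 1.68-fold, limma adjusted p = 0.00477), with a mean of 10.66 at 48 h and 9.91 at 12 h. All 48 h arrays lay above all 12 h arrays in both, as was the case upward for 30.4% of all probe sets with CsA and 28.4% in controls. The probe set 202805_s_at changed by 0.52 with CsA (SE 0.13, limma adjusted p = 0.0243) and by 0.45 in the controls (SE 0.19, limma adjusted p = 0.108). Both calls with CsA were lost without any one of the 12 h CsA arrays, at values of 0.59 to 0.62 for 202804_at and of 0.51 to 0.53 for 202805_s_at.

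ABCC4 passed in the controls and not with CsA. With CsA 203196_at changed by 0.31 (SE 0.11, limma adjusted p = 0.0690), with means of 11.91 at 48 h and 11.60 at 12 h, and it passed in 1 model of 12 arrays (adjusted p = 0.0338). In the controls it rose by 0.60 (SE 0.10, 1.52-fold, limma adjusted p = 0.00571), with means of 12.14 at 48 h and 11.54 at 12 h. There the mean of its probe sets gave 0.46 and did not pass (limma adjusted p = 0.0992). The difference of the CsA effects, 48 h minus 12 h, was -0.29 (SE 0.15, limma adjusted p = 0.379). The other probe sets of ABCC4 did not pass in either series. Without replicate 3 of CsA at 48 h, 1555039_a_at (0.47) passed with CsA, and without replicate 1 of the 48 h controls 1554918_a_at (0.66) and 1555039_a_at (0.74) passed in the controls.

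ABCC3 rose with CsA, where 208161_s_at changed by 1.07 (SE 0.21, 2.10-fold, limma adjusted p = 0.00954), with means of 9.16 at 48 h and 8.08 at 12 h. The mean of its probe sets gave 0.41 and did not pass (limma adjusted p = 0.0765). In the controls the change was 0.35 (SE 0.30, limma adjusted p = 0.390), with means of 8.28 at 48 h and 7.93 at 12 h. The probe set 209641_s_at had 0.63 with CsA (SE 0.26, limma adjusted p = 0.109, and 0.92 with adjusted p = 0.00263 without replicate 3 of CsA at 48 h) and 0.00 in the controls (SE 0.18). The x_at probe set 239217_x_at went the other way, with -0.27 with CsA (SE 0.14) and -0.30 in the controls (SE 0.17), and neither passed. The other x_at probe set, 230682_x_at, had 0.20 with CsA (SE 0.12) and 0.06 in the controls (SE 0.08), and neither passed. The x_at ending of both marks probes that may cross-hybridize.

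ABCC5 fell by its brightest probe set in both series. The change of 209380_s_at was -0.57 with CsA (SE 0.17, limma adjusted p = 0.0430), with means of 9.24 at 48 h and 9.81 at 12 h. In the controls it was -0.49 (SE 0.09, limma adjusted p = 0.00725), with means of 9.23 at 48 h and 9.72 at 12 h. Without both replicate 1 arrays of 48 h it was -0.44 in 1 model of the rest and did not pass (limma adjusted p = 0.0570). The call with CsA was lost with any one of its 6 arrays left out, at values from -0.66 to -0.43. The dim probe set 226363_at ran the other way in the controls, with 1.05 (SE 0.41, limma adjusted p = 0.0909). It passed with the replicate number as a block (adjusted p = 0.0438) and without replicate 1 of the 48 h controls (1.46, adjusted p = 0.0188), both by limma. It also passed in 1 model of 12 arrays (adjusted p = 0.0302). With CsA it had 0.16 (SE 0.15). The mean of the 3 probe sets gave ABCC5 a change of 0.12 in the controls, so its direction with time depends on the probe set.

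POR rose by 0.38 with CsA (SE 0.11, 1.30-fold, limma adjusted p = 0.0398), with means of 9.74 at 48 h and 9.37 at 12 h. In the controls the change was 0.23 (SE 0.09, limma adjusted p = 0.0883), with means of 9.58 at 48 h and 9.35 at 12 h. All 48 h arrays lay above all 12 h arrays in both series, as was the case upward for 30.4% of all probe sets with CsA and 28.4% in controls. The call with CsA was lost without any one of the 12 h CsA arrays or without replicate 2 of CsA at 48 h, at values of 0.34 to 0.40.

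**Figure D4:**
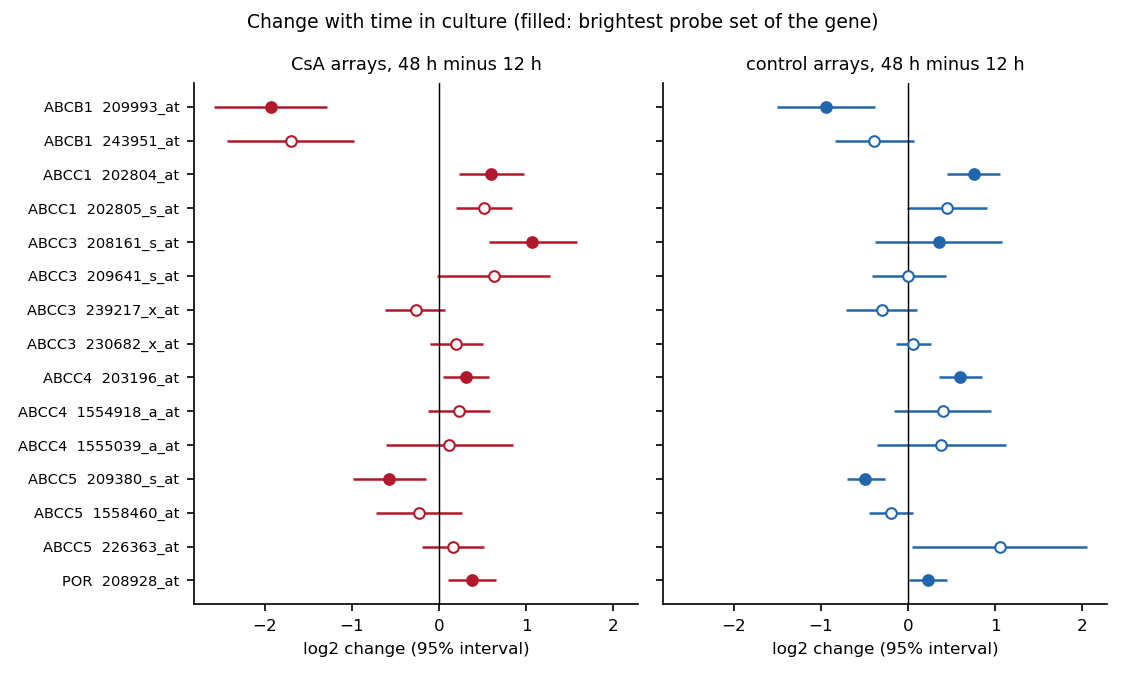
The log2 change between 12 h and 48 h is shown for the 15 tested probe sets in the CsA arrays (left) and the control arrays (right), with 95% intervals from limma, and the filled points are the brightest probe set of a gene. ABCB1 lies farthest to the left in both panels, at -1.93 with CsA and -0.94 in the controls for 209993_at.

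The genes whose profile over the 12 arrays was most like that of ABCB1 (209993_at) among 11153 others were TMSB4X, an actin-binding peptide gene (Pearson r = 0.976), RAB40B (0.968) and COA1 (0.968). These correlations describe arrays that share groups and carry no p. RAB40B averaged 8.34 with CsA and 9.00 in the control at 48 h, and 9.77 with CsA and 9.74 in the control at 12 h. TMSB4X, near the top of the scale, averaged 16.47 with CsA and 16.57 in the control at 48 h, and 16.72 with CsA and 16.74 in the control at 12 h.

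Other genes of drug transport and metabolism were counted by lists chosen with earlier results of these data known, each gene by its brightest probe set. The calls at 48 h depend on how the spread is estimated: of the 14 list genes named below, none passed in the fit of the 6 arrays, and 11 passed in 1 model of 12 arrays (limma adjusted p between 0.0018 and 0.037). The exceptions were ABCD3, SLC22A4 and CAV2. Among the remaining ABC transporters, 16 of 35 were tested. None passed with CsA at 48 h (median log2 change 0.072, 9 positive) or at 12 h (median -0.041, 4 positive). The smallest p values at 48 h were those of ABCB10, a mitochondrial ABC transporter, with -0.46 (SE 0.15, limma adjusted p = 0.181), and ABCD3, a peroxisomal fatty acid transporter, with -0.39 (SE 0.14).

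Of 26 carriers of the SLC families, which take drugs and organic ions across membranes, 6 were tested and none passed at either time (median 0.38 at 48 h and 0.081 at 12 h). SLCO4A1, an organic anion carrier, read 11.91, 11.83 and 11.65 with CsA, against 10.61, 10.06 and 10.71 in the control at 48 h. All CsA arrays lay above all controls, where 27.5% of all probe sets separated the groups in either direction. The log2 change was 1.34 (SE 0.20, limma adjusted p = 0.0662). SLC22A4, the ergothioneine transporter, had 0.71 (SE 0.28).

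Of 37 other P450 enzymes 10 were tested, and their brightest probe sets gave no call (median 0.21 at 48 h and -0.046 at 12 h). CYP1B1, which oxidizes polycyclic hydrocarbons and steroids, read 8.59, 9.17 and 8.35 with CsA, against 9.76, 10.03 and 9.97 in the control at 48 h (202437_s_at). The log2 change was -1.21 (SE 0.23, limma adjusted p = 0.0842), with no overlap between the groups, as for 27.5% of all probe sets. A dimmer probe set of CYP1B1, 202435_s_at, looked up after the values were seen, was 1 of 8 in the whole table to pass at 48 h, with -1.66 (SE 0.12, limma adjusted p = 0.0408). CYP2S1, an extrahepatic P450, was near background at 12 h with CsA and had 5.05, 5.23 and 6.65 with CsA, against 4.08, 3.86 and 4.10 in the control at 48 h. Its log2 change was 1.63 (SE 0.42, limma adjusted p = 0.130).

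None of the 18 tested genes of electron donors and heme supply passed (median 0.049 at 48 h and -0.014 at 12 h). ALAD, an enzyme of heme synthesis, had -1.20 at 48 h (SE 0.20, limma adjusted p = 0.0745) with all CsA arrays under all controls, and NDOR1, a flavoprotein related to POR, had 0.42 (SE 0.11). None of the 21 tested regulators passed (median -0.0091 at 48 h and 0.021 at 12 h). NR1I2, the pregnane X receptor itself, was in the list but not among those tested. PPARG, a nuclear receptor of lipid genes, had 0.85 at 48 h (SE 0.13, limma adjusted p = 0.0697), and RXRA, the partner of the pregnane X receptor and of PPARG, had -0.98 (SE 0.23, limma adjusted p = 0.115). RXRA read 9.31, 9.72 and 9.38 with CsA, against 10.33, 10.90 and 10.13 in the control at 48 h, with no overlap. The groups did not overlap at 48 h for 27.5% of all probe sets, those of ALAD and RXRA among them. None of the 21 tested conjugating enzymes passed at 48 h, where 4 were positive and the median was -0.22, or at 12 h (median -0.014), while all genes had medians of -0.005 and -0.0068. UGT8, a galactosyltransferase, had -0.85 (SE 0.16) and NAT1, an N-acetyltransferase, -0.41 (SE 0.11) at 48 h. None of the 8 tested membrane scaffolds passed (median 0.12 at 48 h and -0.021 at 12 h). PDZK1, which anchors apical transporters, had -1.02 (SE 0.24) and CAV2, a caveolin, 0.41 (SE 0.15) at 48 h. The summed linear level of the 11 proximal tubule markers lay between 2205 and 3307 with CsA and between 4890 and 7662 in the control at 48 h. PDZK1 made up 59.1% to 72.1% of that sum with CsA and 55% to 67.9% in the control. Without it the sum lay between 800.7 and 922 with CsA and between 1571 and 3450 in the control, most of it SLC4A4. MME, the only other marker above 4 on every array, did not fall as the sum did. Its share was 5.85% to 12.2% with CsA and 2.88% to 4.23% in the control. The summed linear level of the 3 fibroblast markers, mostly COL1A1, lay between 596.5 and 984.4 with CsA and between 1345 and 1744 in the control at 48 h. PDGFRB did not fall as that sum did, with shares of 4.71% to 5.28% with CsA and 1.7% to 2.14% in the control. The renal epithelial markers overlapped, with sums between 70820 and 82670 with CsA and between 78730 and 82890 in the control. Their part in the changes at 48 h was not tested.

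**Figure D5:**
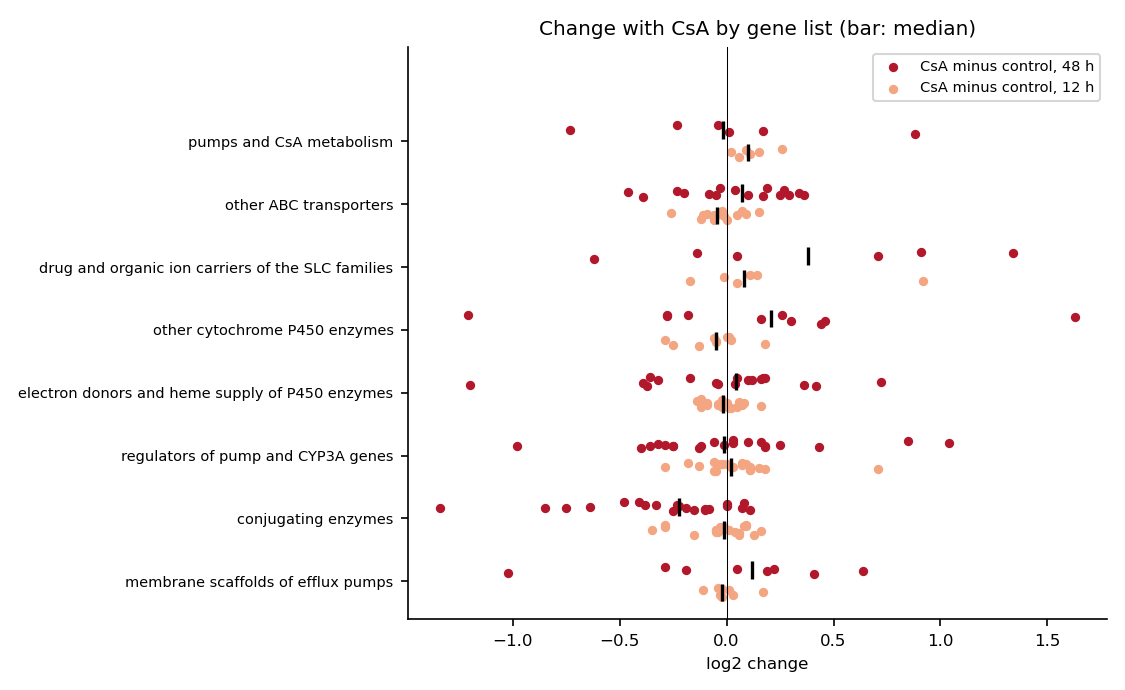
Each point is the log2 change with CsA of the brightest probe set of a gene, at 48 h (dark) and 12 h (light), for the 6 genes with RNA described first and for 7 lists of related genes, and bars mark the medians. The changes at 48 h spread more widely than at 12 h, and the conjugating enzymes have a median of -0.22 at 48 h.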

How the data were processed

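RNA of HK-2 cells was measured on 12 Affymetrix arrays. The deposited values are log2 expression values per probe set, which the authors computed with GCRMA, per the submitters' processing notes. Its version and settings, and a genome build, were not stated. No pair of the 66 pairs of arrays held identical values. Probe sets were named from the platform annotation (41097 with 1 symbol, 1801 with several, 11777 with none), with symbols checked by gene identifier in a RefSeq table. Probe sets with 1 symbol and a log2 value over 4 on at least 3 arrays were tested, 20625 of 11154 genes, without the 62 control probe sets.

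Each comparison was fitted alone on its 6 arrays in limma 3.58.1 (R 4.3.3), except the difference of the CsA effects, which used all 12 arrays. The median SD within a group was 0.22 and 0.17 for CsA and control at 48 h but 0.12 in both groups at 12 h. Fitting alone kept these spreads apart for CsA against control only. The comparisons over time pooled a 12 h group with a 48 h group under a common estimate of spread. The difference of the CsA effects pooled both times in the same way. Tests were two-sided with Benjamini-Hochberg adjustment over all probe sets tested. With 3 arrays against 3, an exact permutation test cannot go below p = 0.1, so none was used. The fits were tested on simulated data with known changes. There the share of false calls was near the threshold for CsA against control. It was above the threshold for the comparisons over time and the difference of the effects. Most 2-fold changes at 48 h were missed, so an absent call at 48 h does not show an absent change. Calls over time near the threshold are less sure. Far fewer probe sets were changed in the simulated data than were called over time here, so the shares of false calls and of missed changes may differ in these data. The simulated arrays were also independent, with the same spread for CsA and control of a time. They could therefore not show what unequal spread at 48 h, pairing at 12 h or single poor arrays do, for CsA against control included.

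Replicate numbers come from the labels. Deviations from the group means of same-numbered arrays had correlations of 0.392 to 0.55 for the 12 h groups and 0.124 to 0.295 for the controls over time, all over 0.1, which was taken as pairing. For the 48 h groups and for CsA over time 1 of 3 pairs exceeded 0.1, which was not. Alternatives changed the spread estimate, block, filter, choice of probe sets, centring, floor, priors, array weights and the arrays used. The members and lists, and the choice to fit each time alone, were made with earlier results of these data known. The named pathway genes are up to 6 called in a list or, with fewer than 2 called, the 2 with the smallest p at 48 h; the 3 genes most like ABCB1 are named by correlation because no member passed with CsA. Precision is limited by 3 arrays per group.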

Additional observations from a re-analysis of the deposited data

How the results depend on the processing

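No member passed at 12 h under any alternative. At 48 h 1 did, 226363_at of ABCC5, only without both 48 h replicate 1 arrays in 1 model of the rest. With the replicate number as a block (replicate block), no probe set passed at 12 h or 48 h (0 against 8), 443 against 66 passed for the difference of the effects, and in that difference 1 member passed, 209993_at of ABCB1 (-0.99, limma adjusted p = 0.0494, range over its alternatives 0.0494 to 0.479). The arrays of 48 h share only a number. The block left 4 of 7 member calls with CsA over time, and in the controls it added 2 calls given in the report; neither the 48 h groups nor the CsA arrays over time had every array correlate best with its own number. All probe sets called at 48 h (8) became 2620 in 1 model of 12 arrays. Without both 48 h replicate 1 arrays they became 649. That fit was also 1 model of the rest, so 649 compares with 2620 and not with 8. They became 1998 with array weights, 133 with trend and robust priors and 123 with 1 probe set a gene. They became 88 with the mean of probe sets, 82 with a filter at 6, 3 with median centring and 1 with no filter. For the difference (66) they became 25 with weights by group, 1253 with array weights, 4 without both replicate 1 arrays, 154 with trend and robust priors, 125 with 1 probe set a gene, 102 with the mean of probe sets, 124 with a filter at 6, 24 with median centring and 35 with no filter. At 12 h (0) 1 probe set passed in 1 model of 12 arrays. Over time, 1 probe set a gene and the mean of probe sets gave 5109 and 5102 calls with CsA (8162) and 5295 and 5114 in controls (8101), where fewer rows were tested. Member calls were 3 with CsA (7) and 2 in controls (4) for the mean of probe sets, and 3 with CsA with no filter. With 1 array left out, calls were 0 at 12 h and lay between 0 and 23 at 48 h, 0 and 482 for the difference, 5359 and 10097 with CsA over time and 5764 and 7922 in controls over time. Member calls were 3 to 8 with CsA and 3 to 7 in controls, and 0 in the other comparisons. The mean of probe sets reversed ABCC5 in controls over time (0.12). Of all member values under all alternatives, 1228 kept sign and side of the threshold, 31 lost a call, 18 gained one, 1 reversed and 57 that were never called differed in sign. The cause was not tested. With 3 arrays a group and values near background for 243951_at, sizes there are uncertain. Other background corrections and a slide or scan block were not run, since only summarized values were used here.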

Other observations

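Over time in culture, the genes of the 7 related lists were counted by their brightest probe sets at a limma adjusted p of 0.05 or less. Of all probe sets 19.6% were higher and 20% lower with CsA, and 20.4% higher and 18.8% lower in controls. Counted like the lists, by the brightest probe set of each of 11154 genes, 2491 were higher and 2345 lower with CsA. In controls 2571 of them were higher and 2288 lower. Of 21 conjugating enzymes, 2 were higher and 10 lower at 48 h than at 12 h with CsA, and 3 higher and 10 lower in controls. Of 8 membrane scaffolds 5 were lower with CsA and 4 in controls, and none was higher. Of 10 other P450 enzymes 5 were higher and 1 lower with CsA, and 4 higher and 1 lower in controls. Of 16 other ABC transporters 5 were higher and 2 lower with CsA, and 4 higher and 3 lower in controls. Of 18 electron donors and heme genes 2 were higher and 5 lower with CsA, and 6 higher and 6 lower in controls. Of 21 regulators 5 were higher and 3 lower with CsA, and 5 higher and 2 lower in controls. Of 6 SLC carriers 1 was higher and 1 lower with CsA, and 1 higher and 2 lower in controls.

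SLCO4A1 fell with time by 1.03 with CsA (limma adjusted p = 0.00174) and by 2.22 in controls (limma adjusted p = 0.000428), on the log2 scale. The difference of these changes, which is the CsA effect at 48 h minus that at 12 h, was 1.19 (SE 0.22, limma adjusted p = 0.0560). ALAD changed by -0.39 with CsA (limma adjusted p = 0.214) and by 0.69 in controls (limma adjusted p = 0.00249), with a difference of -1.08 (SE 0.25, limma adjusted p = 0.0941).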
